A study of Mus musculus with 4 samples.

Results

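The cells described here are the macrophages and dendritic cells of mouse popliteal vessels, chosen by the transcripts measured in each cell. A barcode was kept from 500 UMIs (unique molecular identifiers, each standing for 1 captured transcript) and 300 genes upward, as long as mitochondrial genes gave no more than 15% and haemoglobin genes no more than 20% of its UMIs. A kept barcode counted as a member when it held a UMI of Tyrobp or Fcer1g, which encode signalling adaptors of myeloid cells. It also needed a UMI in at least 3 of 12 identity genes: Csf1r, C1qa, C1qb, C1qc, Mrc1, Cd68, Adgre1, Flt3, Cd209a, Zbtb46, H2-Aa and H2-Eb1. It could hold no UMI of Cd3e, Cd79a or Cpa3, which mark T cells, B cells and mast cells. By this rule 96 of 3435 kept cells were members. They were 60 of 1919 in PLV replicate 1 and 15 of 519 in PLV replicate 2, both from popliteal lymphatic vessels (PLV), and 21 of 997 in a library of mixed vessels. Values listed for the libraries stand in this order throughout. The counts of the 17 genes in the rule selected the cells, so the levels of these genes are given as a description and without a test.

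Macrophages are resident phagocytes that depend on the receptor encoded by Csf1r, clear dying cells and debris, and in many tissues sit beside vessels. Vessel-associated macrophages are known for the hyaluronan receptor Lyve1, the folate receptor Folr2, the mannose receptor Mrc1 and for secreting C1q, the recognition molecule of the classical complement pathway. Conventional dendritic cells depend on Flt3, carry antigen to lymph nodes through lymphatic vessels and present it on MHC class II. They are divided into a type 1, marked by Xcr1 and Clec9a and dependent on Irf8, and a type 2, to which Cd209a and Mgl2 belong in many tissues.

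The lymphatic vessels and, for the mixed library, popliteal lymphatic and blood vessels (BV) together were dissected from adult mice that carry WT1GFPCre (a GFP and Cre fusion at the Wt1 locus) and the Ai9-tdT reporter, and the labels call the cells vascular. All mice shared these alleles, and all received Evans blue dye in the footpad before dissection. Each library was a pool of 2 mice. The PLV suspensions were digested for 30 minutes with collagenase I, Dispase II, DNAse and Liberase, and the mixed suspension for 60 minutes with the first pair of enzymes alone. Vessel, digestion and mice therefore differed together between PLV and mixed cells. So did the version of Cell Ranger, the counting software (6.1.2 for PLV and 4 for mixed). These factors cannot be told apart. The hashtags that should mark the vessel did not separate the cells of the mixed library. The first tag made up 79.8% of tag counts in near-empty droplets and a median of 84.4% in the 21 members, with a range of 70.3% to 99.4%, so the members of that library were not assigned to a vessel. Kept cells held 9611078, 3466668 and 7814616 UMIs, and members held 292074, 140931 and 146148 of them. The median member had 4058, 9330 and 5806 UMIs, against 3323, 4842 and 6235 in the other kept cells. No barcode was shared between the kept cells of any pair of libraries. Xist, the X-inactivation transcript of female cells, had 652 and 602 UMIs per 1000000 (CPM) in the other kept cells of the PLV libraries and 0.130 CPM in those of the mixed library, so the pools differed in it.

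The 3 C1q genes divided the members into cells with and cells without them. They lie next to each other on the minus strand of chromosome 4, from 136880129 to 136898803 of GRCm38, a span of 18.7 kb, in the order C1qb (ENSMUSG00000036905), C1qc (ENSMUSG00000036896) and C1qa (ENSMUSG00000036887), and each encodes a chain of the same protein. Of the 96 members, 57 held UMIs of at least 2 of the 3 genes, 38 held none of any, and 1 held a single gene. All 3 genes were found together in 37, 8 and 10 members of the 3 libraries, and 2 of the 3 in 1, 0 and 1. The promoters are shown because these genes move together and set the split used below, for C1qb and C1qc; that of C1qa is not shown here. They run from 250 bases before to 50 after the start site, are taken from RefSeq on GRCm38.p6, and are written 5′ to 3′ on the gene's strand; C1qb is at chr4:136886151-136886450 and C1qc at chr4:136892865-136893164. Capitals mark matches on either strand to GAGGAA, a PU.1-type site, which reads TTCCTC on the other strand, and to TGCTGA, a MAF core site, which reads TCAGCA on the other strand.
C1qb: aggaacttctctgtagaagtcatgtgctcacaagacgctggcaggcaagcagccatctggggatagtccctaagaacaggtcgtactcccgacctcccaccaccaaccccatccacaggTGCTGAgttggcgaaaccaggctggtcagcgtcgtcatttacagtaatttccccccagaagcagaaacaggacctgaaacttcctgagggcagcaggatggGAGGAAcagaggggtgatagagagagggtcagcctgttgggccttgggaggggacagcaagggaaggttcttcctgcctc
C1qc: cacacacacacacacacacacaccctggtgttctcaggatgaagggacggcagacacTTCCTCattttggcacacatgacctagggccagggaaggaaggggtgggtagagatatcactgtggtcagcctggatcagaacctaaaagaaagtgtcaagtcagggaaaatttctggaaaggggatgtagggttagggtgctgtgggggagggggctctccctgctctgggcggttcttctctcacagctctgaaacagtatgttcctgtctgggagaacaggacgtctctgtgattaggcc
The C1qb promoter had 1 PU.1-type match and 1 MAF core site, and the C1qc promoter 1 PU.1-type match, on the other strand, and 0 MAF core sites. The PU.1-type letters were found in 28.3% (9289 of 32851) and the MAF core site in 19.5% (6401 of 32851) of all promoters of that length, and the matches did not overlap. PU.1 (Spi1) is the master regulator of myeloid genes, and Maf is a macrophage transcription factor whose levels are given below.

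The 5 markers of the label, Csf1r, C1qa, Mrc1, Cd209a and H2-Aa, were all far higher in the members than outside them. C1qa stood at 1585, 1235 and 1512 CPM in members, against 5.47, 0 and 0.652 CPM in the other kept cells. A C1qa UMI was found in 38 of 60, 8 of 15 and 10 of 21 members and in 18 of 1859, 0 of 504 and 3 of 976 other cells, and the 0 of 504 allows a share of up to 0.595%. In the mixed library, droplets with fewer than 50 gene UMIs held C1qa at 77.0 CPM (60.7 to 96.2, exact 95% Poisson interval) of free RNA, above the 0.652 CPM of the other kept cells. Mrc1 was at 1455, 1604 and 1396 CPM in members and at 4.83, 0.301 and 6.00 CPM in the other cells. Csf1r was at 644, 341 and 527 CPM in members and at 3.54, 1.20 and 5.22 CPM outside them. Cd209a, a C-type lectin of dendritic cells and some macrophages, was at 541, 348 and 287 CPM in members and at 0.966, 0 and 0.522 CPM outside them. H2-Aa, an MHC class II chain, was at 9549, 9494 and 6774 CPM in members and at 59.8, 24.4 and 33.8 CPM outside them. Flt3, the receptor for the growth factor of dendritic cells, was found in 9 of 60, 6 of 15 and 6 of 21 members. Zbtb46, a factor of conventional dendritic cells that endothelial cells also express, was at 17.1, 28.4 and 20.5 CPM in members and at 14.9, 22.0 and 9.13 CPM in the other cells, and the level outside lay within the members' counting interval in each library, so Zbtb46 did not set the members apart. Members held 8.0, 8.0 and 7.0 of the 12 identity genes in the median. Just inside the threshold, 4, 0 and 0 members had exactly 3 identity genes, and just outside it 5, 1 and 4 cells had 2.

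**Figure D1:**
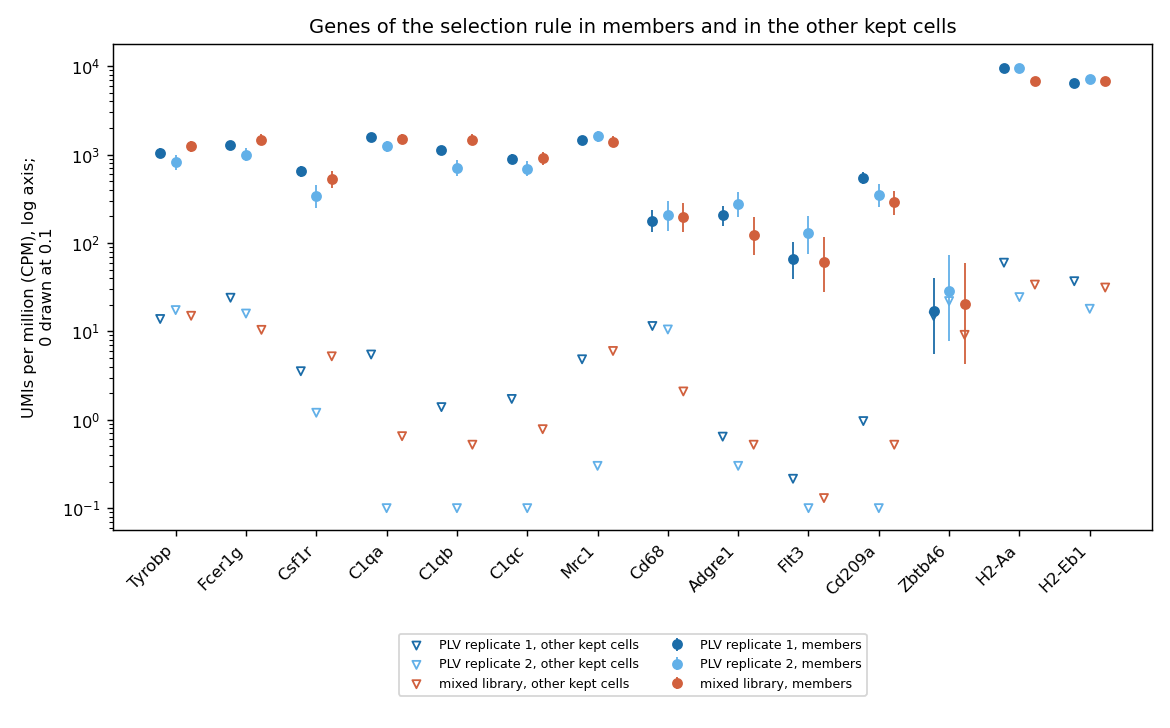
Level of each gene of the selection rule (horizontal axis) as CPM on a log axis with 0 drawn at 0.1, for members (filled circles with exact 95% Poisson intervals) and for the other kept cells (open triangles), coloured by library. C1qa sits at 1585, 1235 and 1512 in members, and Zbtb46 is the identity gene whose member and non-member levels lie side by side.

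Members were 3.13% of the kept cells of PLV replicate 1 (2.39 to 4.01, exact 95% Clopper-Pearson interval), 2.89% of PLV replicate 2 (1.63 to 4.72) and 2.11% of the mixed library (1.31 to 3.20). The PLV mean was 3.01% ± 0.167 (SD, n = 2), and the interval of the mixed library overlapped both PLV intervals. A difference in share was not tested. The intervals cover counting error only, and the members' shares stand beside the differences in vessel and digestion given above, whose part was not tested. Asking for 1000 UMIs gave 3.57%, 3.36% and 2.24%, and thinning every cell to 1500 UMIs, with shallower cells left out, gave 3.66%, 2.23% and 2.04%.

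Beyond the genes of the rule, the 20 genes with the highest ratio over the other kept cells in the library where it was lowest (20 CPM added to each level) are sorted here by what they are known to encode, after their values were seen. Of the genes of MHC class II presentation, the invariant chain Cd74 stood first among all 20. It was at 21255, 24281 and 16990 CPM in members and at 151, 62.2 and 84.9 CPM outside, a lowest log2 ratio of 6.96. H2-Ab1 followed with 6.94, and the peptide-exchange chaperone genes H2-DMa and H2-DMb1 had 4.84 and 4.30. A group of lysosomal and phagocyte genes held Lyz2, encoding lysozyme, with 6.42, the protease gene Ctss with 4.81, Laptm5 with 4.60, the oxidase subunit Cybb with 4.43 and the inhibitory Fc receptor Fcgr2b with 4.34. A group of scavenging and lectin genes held F13a1, encoding a coagulation factor subunit, with 5.84, Mgl2 with 5.26, the haemoglobin scavenger receptor Cd163 with 4.73 and Clec10a with 4.32, though not in all members: F13a1 was at 357, 0 and 121 CPM in cells without C1q and at 2974, 3195 and 2490 CPM in cells with it. A secreted group held Retnla and Wfdc17, both with 5.09, the chemokine genes Pf4, Ccl8, Ccl6 and Ccl9 with 4.57, 4.53, 4.50 and 4.42, and Ms4a6c, a membrane protein gene, stood beside them with 4.32. Lyz2 and Lyz1, and Mgl2 and Clec10a, are neighbouring near-copies whose reads the counting could split, so their separate levels are uncertain. These values are a description, because the rule chose the members by the same contrast.

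Markers of most other cell types were scarce in the members. Of the 5 lymphatic endothelial genes listed, Prox1, Flt4, Ccl21a and Mmrn1 had 0 UMIs in every library and the list 1, 0 and 0 UMIs. Of the 10 T and NK cell genes, 9 had 0 UMIs, Cd3d, Trac, Trbc2, Nkg7 and Ncr1 among them. The list of monocyte and neutrophil genes, which macrophages and dendritic cells also express in part, had UMIs in 12, 8 and 10 of 16 genes and summed to 4201, 3356 and 4133 CPM in members, above the 3688, 2375 and 2629 CPM outside, while S100a8, S100a9, Retnlg and Vcan had 0 UMIs. Muscle, fibroblast and Schwann lists summed to 92.4, 14.2 and 95.8 CPM, 71.9, 56.8 and 171 CPM, and 216, 121 and 157 CPM in members, against at least 8629, 5258 and 666 CPM in the other kept cells of any library. In PLV replicate 1, 22 of 27 muscle UMIs and 22 of 63 Schwann UMIs lay in single cells. The B cell list, by contrast, was above the other cells, with 82, 37 and 30 UMIs (281, 263 and 205 CPM against 160, 89.6 and 19.6 CPM), while Ms4a1, Igkc and Iglc2 were at 0. Haemoglobin in PLV replicate 1 came to 1153 UMIs against 10 and 27, of which 90.5% lay in 3 cells with 435, 432 and 176. The blood endothelial list in the mixed library came to 82 UMIs against 17 and 3, of which 81 lay in 1 member. That member, which scrublet marked as a doublet, held 17964 UMIs, among them 211 of Fabp4 and 50 of Cldn5, together with 20 of Tyrobp, 77 of H2-Aa, 160 of Cd74 and 114 of Lyz2, and none of C1qa. Values without it are given below for Retnla, Cxcl2, Apoe and Fn1 and for the genes whose calls were lost without it.

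The C1q-bearing cells (38, 8 and 11) made up 63.3% (49.9 to 75.4), 53.3% (26.6 to 78.7) and 52.4% (29.8 to 74.3) of members, with a PLV mean of 58.3% ± 7.07 (SD, n = 2). The C1q-zero cells numbered 21, 7 and 10. Their median UMI counts were 3744, 7614 and 6091 in C1q-bearing cells and 6460, 13184 and 5607 in C1q-zero cells, so in both PLV libraries the cells without C1q were the deeper ones. UMIs were summed over each arm of each library, and the arms were compared within libraries with edgeR's quasi-likelihood test. Outside the genes of the rule, 324 of 1171 genes differed (27.7% of those tested, adjusted p under 0.05 by Benjamini-Hochberg), 183 higher (15.6%) and 141 lower (12%) in C1q-bearing cells. Both arms come from the same 3 libraries, and in such sums fewer cells that carry a transcript and less of it per cell cannot be told apart. The filter on low counts asked for 126 CPM in 3 of the 6 sums, and 153 genes reached that level in 1 arm alone. The filter favours a call for these one-arm genes, of which 118 were called. They are therefore given below as a description, with no p, also where they have a fitted log2 difference. Of the 1018 genes that reached 126 CPM in at least 1 sum of both arms, 206 were called (20.2%), 94 higher (9.23%) and 112 lower (11%), and the counts of the lists below are over such genes. With 1 library left out the number of calls ran from 211 to 403, and DESeq2 called 211.

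**Figure D2:**
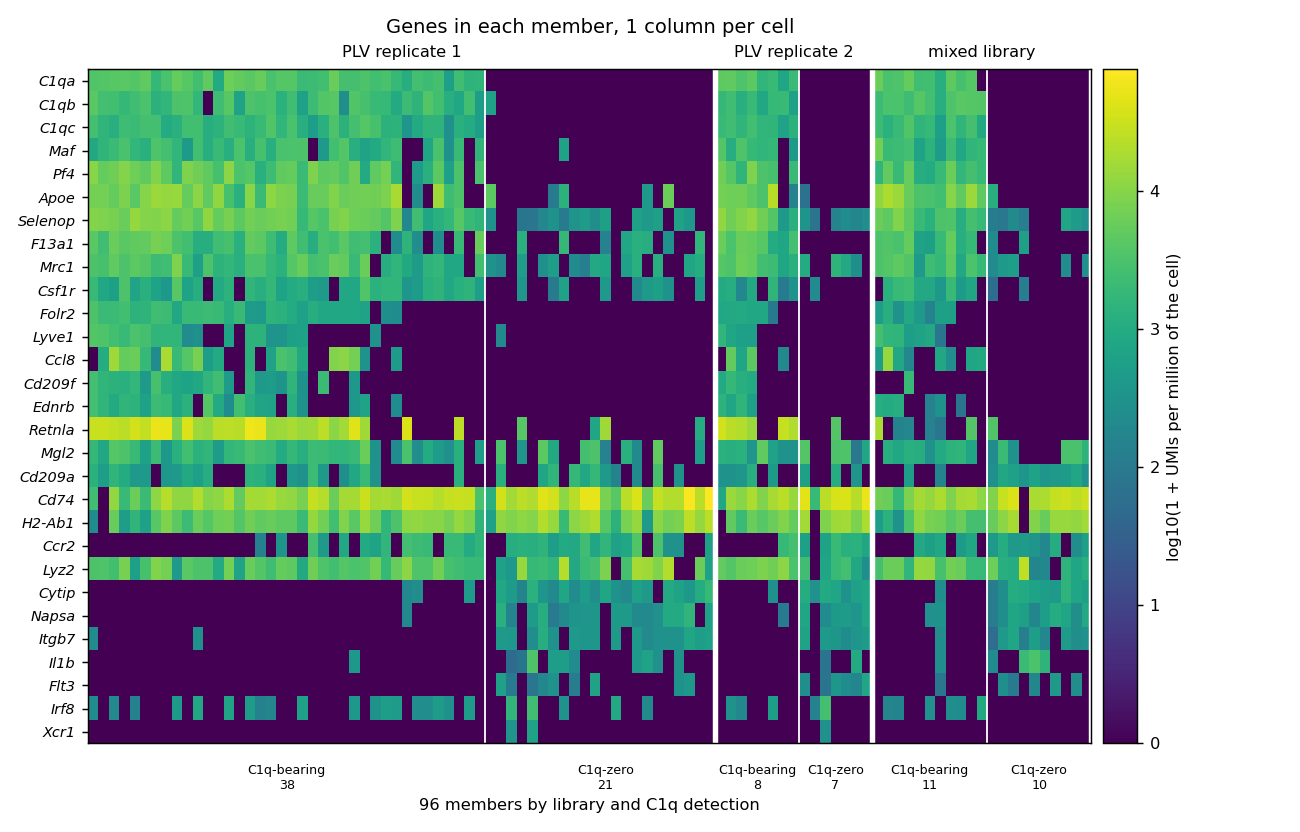
Selected genes (vertical axis) in each of the 96 members (1 column per cell, grouped by library and C1q arm), coloured by log10 of 1 plus the CPM level within the cell. Maf, Pf4 and Apoe fill most columns of the 38, 8 and 11 C1q-bearing cells, and Cytip and Napsa those of the 21, 7 and 10 C1q-zero cells.

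Selenop, F13a1, Cd163 and Cfp, genes of the perivascular macrophage list, were higher in C1q-bearing cells, and Pf4, Ccl8 and Folr2 had 0 UMIs in the C1q-zero cells. Of the 17 listed genes 14 passed the filter on low counts. Folr2, Ccl8, Pf4, Stab1, Cd209f and Igf1 were absent from the C1q-zero cells and Lyve1, Cbr2 and Gas6 had 1 UMI each there, so these 9 were one-arm genes. Of the 5 others 4 were called higher, beside 9.23% of all genes seen in both arms. Pf4, encoding the chemokine platelet factor 4, was at 4596, 3667 and 2868 CPM in C1q-bearing cells and had 0 UMIs in all C1q-zero cells. A count of 0 over these 306650 UMIs allows up to 9.78 CPM (3 counts over the arm). This makes Pf4 at least 403-fold higher in the sums pooled over the 3 libraries. All such bounds below also use pooled sums, and they are not lower bounds within each library. Ccl8, a monocyte-attracting chemokine gene, was at 2874, 1606 and 1497 CPM against 0 in every library, at least 229-fold higher in the pooled sums. Folr2 was at 1110, 471 and 420 CPM against 0, at least 80.8-fold higher in the pooled sums. As one-arm genes, these 3 were bound to reach the filter in every C1q-bearing sum and in no C1q-zero sum, so their separation is a description. In the pooled sums Cd209f was at least 60.0-fold, Igf1, a growth factor gene, at least 55.8-fold and Stab1, a scavenger receptor gene, at least 49.7-fold higher. The 11 Cd209f UMIs of the mixed library lay in 1 cell. Lyve1 was at 960, 436 and 532 CPM against 6.74, 0 and 0 CPM. Selenop, encoding a selenium carrier, was at 6204, 6146 and 3372 CPM against 209, 167 and 161 CPM (log2 4.89, SE 0.24, adjusted p = 4.35e-05). Cbr2 was at 911, 803 and 560 CPM and Gas6, encoding a bridge for dying cells, at 904, 995 and 546 CPM, each against 0, 0 and 13.4 CPM. F13a1 (log2 4.35), Cd163 (2.69) and Cfp, encoding properdin (1.10), were also higher. The Cfp call was lost without PLV replicate 1 (log2 0.71), without PLV replicate 2 (1.15) and with DESeq2 (1.05). Cd209d had a log2 difference of 0.82 and did not pass (adjusted p = 0.149).

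Of the macrophage core list 18 genes were tested, 5 of them one-arm genes. Of the 13 others 1 was higher in C1q-bearing cells, the Fc receptor gene Fcgr3 (log2 2.33), beside 9.23% of all genes seen in both arms, and 0 were lower; their median log2 difference was 0.55, beside 0.03. Maf, a one-arm gene, was at 1736, 1589 and 1581 CPM against 40.5, 0 and 0 CPM, and its 6 UMIs outside the C1q-bearing arm came from 1 cell. As a one-arm gene, Maf was bound to reach the filter in every C1q-bearing sum and in no C1q-zero sum. The one-arm genes also held Aif1, with 40, 21 and 55 UMIs against 8, 7 and 6, and Ms4a7, which was absent from the C1q-zero cells and at least 21.6-fold higher. The fractalkine receptor gene Cx3cr1, a further one, had 48, 25 and 10 UMIs against 8, 0 and 2, of which 24 of the 25 and 8 of the 10 lay in 1 cell each and the 48 in 8 of 38 cells. Among the genes of the list that did not pass, Spi1 had a log2 difference of -0.34, Ctss 0.06, Laptm5 0.07, Cd53 0.22 and Lyz2 0.64. Among the genes of the rule, given as description, Csf1r was at 1181, 786 and 1049 CPM against 148, 35.9 and 26.8 CPM, and Mrc1 at 2675, 3090 and 2630 CPM against 324, 586 and 214 CPM.

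**Figure D3:**
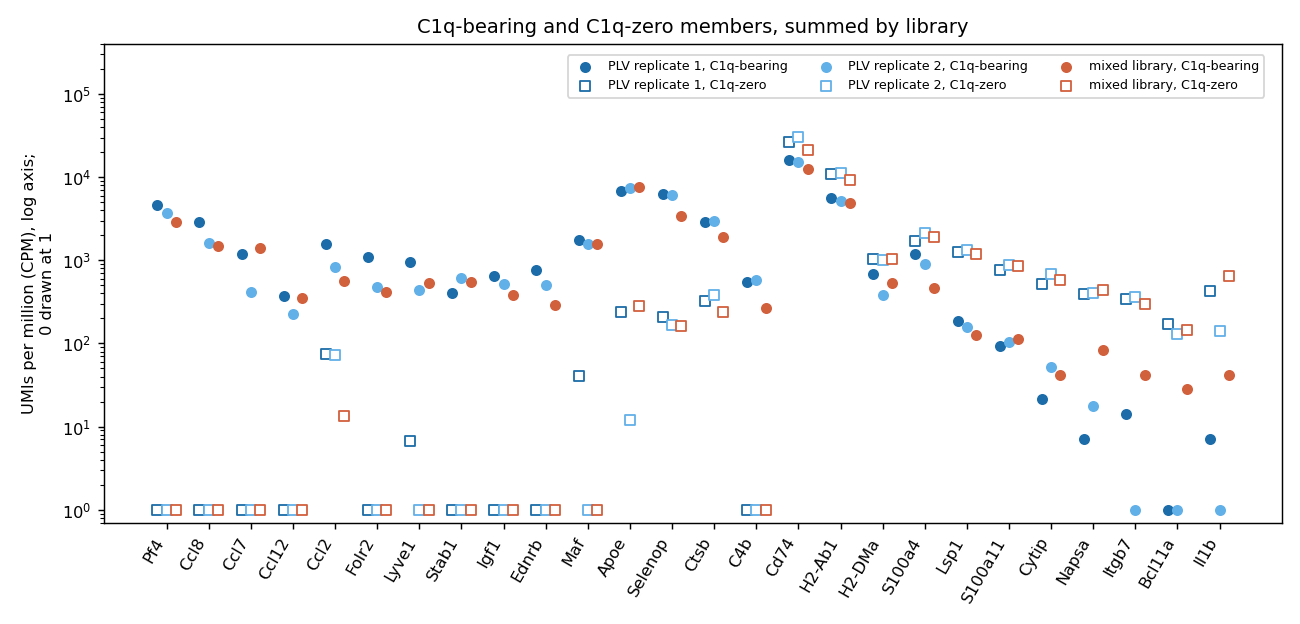
Levels of selected genes (horizontal axis) summed over the C1q-bearing (filled circles) and C1q-zero (open squares) members of each library, as CPM on a log axis with 0 drawn at 1. Pf4 and Folr2 are at 0 in every C1q-zero sum, while Cytip runs the other way at 519, 681 and 576 against 21.3, 52.4 and 42.0.

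Of 10 tested chemokine and cytokine genes, Ccl2, Ccl7, Ccl12, Ccl24 and Il1b were one-arm genes. Of the 5 others Ccl6, Ccl9 and Cxcl2 were higher in C1q-bearing cells, 3 of 5 beside 9.23% of all genes seen in both arms, and 0 were lower. Ccl2, Ccl7, Ccl12 and Ccl8, ligands for monocyte receptors, lie within 81.2 kb of chromosome 11 (82035571 to 82116799), and all 4 were at higher levels in C1q-bearing cells. Ccl7 was at 1195, 419 and 1413 CPM against 0, at least 111-fold higher in the pooled sums. Ccl2 was at 1579, 821 and 560 CPM against 74.2, 71.7 and 13.4 CPM, and Ccl12 was at least 34.2-fold higher, though Ccl2 and Ccl12 are near-copies and could share reads. Ccl24, encoding an eosinophil attractant, was at least 62.6-fold higher in the pooled sums, with 896, 489 and 154 CPM against 0 in the libraries. Ccl6 and Ccl9 were higher by log2 1.73 and 1.01, and Cxcl2, encoding a neutrophil attractant, by 3.89. The Cxcl2 UMIs were uneven, with 151 of 205 in 1 cell of PLV replicate 2 and 140 of 187 in 1 cell of the mixed library, and its call was lost without PLV replicate 1 (log2 3.29) or PLV replicate 2 (2.71). In the mixed C1q-zero sum 73 of 76 Cxcl2 UMIs lay in the member with endothelial UMIs, without which the log2 difference was 6.42. The Ccl6 call was lost without PLV replicate 1 (1.64) or PLV replicate 2 (1.14), and that of Ccl9 without PLV replicate 2 (0.75) or the mixed library (0.92). The levels of Il1b were 7.11, 0 and 42.0 CPM in C1q-bearing and 431, 143 and 643 CPM in C1q-zero cells, with 1, 0 and 3 UMIs in the first. In C1q-zero cells 43 of its 64 UMIs in PLV replicate 1 lay in 1 cell, which held Xcr1, and 11 of 12 in PLV replicate 2 in 1 cell.

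Of 12 listed complement genes 2 were tested. C4b, encoding complement C4, was at 541, 576 and 266 CPM against 0, at least 48.6-fold higher in the pooled sums, as a description. Among receptors, C3ar1, the receptor for the complement fragment C3a, was at least 26.9-fold higher and the chemokine receptor gene Ccr1 had 28, 12 and 19 UMIs against 2, 0 and 3. Both were one-arm genes, and of the 5 other tested receptor genes 0 were called. Ednrb, an endothelin receptor gene outside the lists, was at 768, 506 and 294 CPM against 0, at least 60.0-fold higher in the pooled sums. In the lysosome and lipid list 4 of the 13 tested genes were one-arm genes, and of the 9 others 4 were higher and 1 lower, beside 9.23% and 11% of all genes seen in both arms. Apoe, encoding a lipid carrier, was at 6787, 7455 and 7709 CPM, against 236 CPM, a single UMI and 281 CPM (log2 5.50, SE 0.53, adjusted p = 3.25e-04), and all 21 UMIs of the mixed C1q-zero cells came from the member with endothelial UMIs, without which the log2 difference was 6.28. Ctsb (log2 3.09), Lamp1 (1.79) and Grn (2.90) were higher, whereas Lgals3 (-1.78) was lower. The one-arm genes were Ctsl (fitted log2 3.79), the cholesterol exporter gene Abca1 (4.06), the fatty acid receptor gene Cd36 (3.96) and the tetraspanin gene Cd9 (-2.74). Of 4 tested haem and iron genes Hmox1, encoding haem oxygenase (fitted log2 3.18), and Blvrb (3.84) were one-arm genes, and of the other 2 none passed. In the immediate early list, genes known to respond to tissue dissociation, 7 of 25 were higher and 1 lower, beside 9.23% and 11% of all genes seen in both arms. Egr1 (log2 2.48), Jun (1.42), Klf4 (1.13), Klf6 (1.49), Dusp1 (1.01), Zfp36 (0.64) and Fos (0.62) were higher and Nr4a1 (-1.10) lower. Of these, Fos and Zfp36 were lost without any 1 of the 3 libraries (log2 0.45 to 0.69 and 0.49 to 0.64), Nr4a1 without PLV replicate 2 (-1.24) or the mixed library (-0.82), Dusp1 without PLV replicate 1 (0.84) and Klf4 without PLV replicate 2 (0.96). DESeq2 did not call Fos (0.59), Zfp36 (0.61) or Nr4a1 (-1.19), and Fos was also lost without the member with endothelial UMIs (0.51). The part of dissociation in the other results was not tested.

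Of 8 MHC class II genes seen in both arms 3 were lower and 0 higher in C1q-bearing cells, beside 11% lower and 9.23% higher over all such genes. Cd74 was at 15943, 15120 and 12633 CPM in C1q-bearing and 26718, 30554 and 21160 CPM in C1q-zero cells (log2 -0.79, SE 0.17, adjusted p = 0.0102). H2-Ab1 was at 5599, 5098 and 4855 CPM against 10794, 11213 and 9241 CPM (log2 -0.96, SE 0.17, adjusted p = 0.00485). H2-DMa was lower in C1q-bearing cells (log2 -0.91), and the protease gene Lgmn, a one-arm gene, had 228, 72 and 38 UMIs against 2, 1 and 9. All 3 lower calls were lost without the mixed library, where H2-Ab1 had log2 -1.05 (adjusted p = 0.0635), Cd74 -0.89 (0.206) and H2-DMa -0.95 (0.0578), and that of H2-DMa also without PLV replicate 2 (-0.79) and with DESeq2 (-0.95). A C1q-zero cell needed 3 of the other 9 identity genes, among them H2-Aa and H2-Eb1, so the rule itself favours MHC class II in that arm. H2-Aa, as a gene of the rule, was at 7783, 6373 and 5120 CPM against 11407, 11631 and 8357 CPM.

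Most genes named here with a larger level in the C1q-zero cells were one-arm genes, given as a description. Cytip, encoding a regulator of integrin adhesion, was at 519, 681 and 576 CPM in them and at 21.3, 52.4 and 42.0 CPM in C1q-bearing cells, where it had 3 UMIs per sum. Napsa was at 391, 406 and 442 CPM against 7.11, 17.5 and 83.9 CPM, that is 1, 1 and 6 UMIs. Itgb7, the integrin beta 7 gene, was at 344, 359 and 295 CPM against 14.2, 0 and 42.0 CPM, that is 2, 0 and 3 UMIs. The 3 UMIs of Cytip, 3 of Itgb7, 3 of Il1b, 3 of Cd9, 2 of Bcl11a and 1 of Flt3 in the mixed C1q-bearing sum all came from 1 cell, which also held 14 of C1qa, 25 of Pf4 and 31 of Apoe among its 12414 UMIs. Bcl11a, a transcription factor gene, had 25, 11 and 11 UMIs in C1q-zero cells. Traf1 (fitted log2 -3.38), S100a11 (-2.95), Nr4a2 (-2.93) and Slamf7 (-2.90) were of the same kind. Lsp1, seen in both arms, was lower in C1q-bearing cells (log2 -2.94). In the dendritic cell list 4 genes were seen in both arms, 1 higher (Clec10a, log2 1.83) and 1 lower (Naaa, -1.19), beside 9.23% and 11% of all such genes, and both calls were lost without PLV replicate 2 (1.51 and -0.99) or PLV replicate 1 (1.49 and -1.12). Tnip3 was a one-arm gene (fitted log2 -2.62). DESeq2 called neither Naaa (-1.09) nor, among the chemokines above, Ccl9 (1.00). Of the monocyte genes Fn1 was a one-arm gene (fitted log2 -2.73, and -2.55 without the member with endothelial UMIs), and of the 3 others S100a4 was lower in C1q-bearing cells (-1.16), a call lost without PLV replicate 2 (-1.22) or the mixed library (-0.85). The monocyte chemokine receptor gene Ccr2 was at 498, 594 and 392 CPM against 1119, 932 and 522 CPM and did not pass (log2 -0.73, adjusted p = 0.0556). Ighm, an immunoglobulin heavy chain gene and most of the B cell signal above, was higher in C1q-bearing cells, at 391, 489 and 322 CPM against 169, 95.6 and 80.4 CPM (log2 1.79, adjusted p = 0.00631; 1.48 and not called without PLV replicate 2).

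Lyve1 divided the C1q-bearing cells further, into 19, 4 and 7 cells with a UMI and 19, 4 and 4 without. This split was made after the values were seen, its arms differ in depth (medians of 4428, 7490 and 6091 UMIs against 2525, 7898 and 6858), and it is a description with no test. The cells with Lyve1 had more Folr2, at 1540, 851 and 572 CPM against 451, 71.7 and 180 CPM. They had more Ccl8, at 3879, 3063 and 2287 CPM against 1334, 71.7 and 252 CPM, though 83 of the 100 UMIs of the mixed library lay in 1 cell, without which the level was 452 CPM. They also had more Ednrb, at 1070, 987 and 457 CPM against 306, 0 and 36.0 CPM, and more Cd209f, at 1128, 1259 and 252 CPM against 252, 0 and 0 CPM. The cells without Lyve1 had more MHC class II in the PLV libraries, where H2-Aa was at 5913 and 4798 CPM with Lyve1 and at 10651 and 8032 CPM without. In the mixed library H2-Aa was at 4962 and 5370 CPM, with overlapping counting intervals. Cd74 there was at 11594 CPM (10606 to 12648) with Lyve1 and 14271 CPM (12900 to 15749) without. H2-Ab1 and H2-Eb1 ran the other way there, at 4985 and 4894 CPM with Lyve1 and 4649 and 4685 CPM without. Ccr2 was at 47.0 and 0 CPM with Lyve1 and at 1189 and 1219 CPM without in the PLV libraries, and at 412 and 360 CPM in the mixed library. Cx3cr1 was at 94.0 and 0 CPM against 721 and 896 CPM in the PLV libraries and, the other way round, at 229 against 0 CPM in the mixed library.

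**Figure D4:**
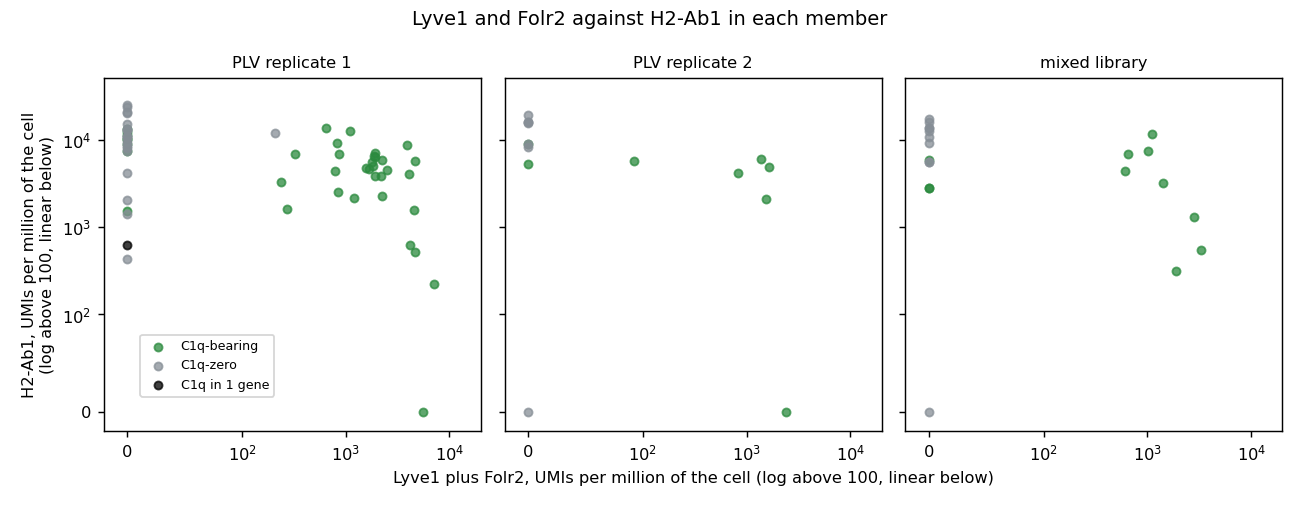
H2-Ab1 (vertical axis) against Lyve1 plus Folr2 (horizontal axis) in each member, as CPM within the cell on axes that are linear below 100 and log above, with 1 panel per library and colours for the C1q arms. Nearly all C1q-zero cells stand at 0 on the horizontal axis, and summed H2-Ab1 was 4009 and 3641 CPM in C1q-bearing cells with Lyve1 against 8037 and 6634 CPM without it in the PLV libraries.

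The C1q-zero cells were of several kinds, again as a description. Those with Flt3 or Cd209a and no Xcr1 were the most numerous, with 12, 5 and 10 cells. Their Mgl2 was at 1803, 2601 and 804 CPM, their Ccr2 at 1275, 1221 and 522 CPM and their Cd74 at 33513, 39013 and 21160 CPM. Mgl2 was also at 1679, 821 and 1035 CPM in the C1q-bearing cells. Ccr2 was at 1189, 1219 and 360 CPM in C1q-bearing cells without Lyve1, so neither gene was particular to this subset. Cells with Xcr1 numbered 2 in PLV replicate 1, 1 in PLV replicate 2 and 0 in the mixed library. Irf8 had 62 UMIs in the 2 cells and 35 in the single cell, and Cd209a and Mgl2 had 0 in all 3. A further 7 cells of PLV replicate 1 had none of Xcr1, Flt3 and Cd209a, and held Lyz2 at 14065 CPM and F13a1 at 1198 CPM. In PLV replicate 2 the 1 such cell held 56 UMIs of Ccl5, 7 of Ccr7, the receptor that guides dendritic cells into lymphatics, 8 of Fscn1 and 6 of Relb, with 3 of H2-Aa and 27 of Cd74 among 13607 UMIs. Of the 14 listed cell cycle genes, Hmgb2, which non-dividing cells also express, was found in 10, 5 and 7 C1q-bearing and 13, 7 and 7 C1q-zero cells. UMIs of the other 13 genes were found in 4, 5 and 5 members, and 10 or more of them in 1, 2 and 1 cells (1, 3 and 1 with Hmgb2 counted): without Hmgb2, the cell of PLV replicate 1, with 37 UMIs of Top2a and 17 of Mki67, also held 7 of Xcr1, and the other 3 were C1q-bearing.

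Retnla was far lower in the mixed members than in the PLV members. The fit over member sums tested 3095 genes and called 91 (2.94%), 47 higher (1.52%) and 44 lower (1.42%) in the mixed library, with 1 residual degree of freedom and the single mixed sum assumed to vary like the PLV sums. DESeq2 on the same sums called 6 of them (Fabp4, Igfbp7, Cldn5, Retnla, Hspa1b and Xist), so the calls of the other genes named below were lost with that tool. The median log2 difference over all tested genes was -0.05. The filter asked for 68.4 CPM in 1 sum, so 1161 genes reached it on 1 side alone, 33 of the called genes among them, and these are given as a description. Of the 1934 genes that reached it on both sides 58 were called (3%), 38 higher (1.96%) and 20 lower (1.03%). Retnla, encoding a protein secreted by alternatively activated macrophages, was at 11894, 7855 and 828 CPM (log2 -3.45, SE 0.25, adjusted p = 8.80e-39). The mixed value lay far below both PLV values, and 64 of its 121 UMIs were in the member with endothelial UMIs, without which the log2 difference was -4.33. The lower level was seen in the C1q-bearing cells, where Retnla stood at 23520, 18472 and 797 CPM, against 1133, 586 and 857 CPM in C1q-zero cells. In PLV, 29 of 38 and 6 of 8 C1q-bearing cells held it, and in the mixed library 6 of 11, with at most 33 UMIs in a cell against 380 and 261. Between the arms, Retnla was higher in C1q-bearing cells (log2 3.44, adjusted p = 0.0297), a call lost without PLV replicate 1 (2.47, adjusted p = 0.171) or PLV replicate 2 (2.35, 0.223), with 4.79 (adjusted p = 4.90e-08) without the member with endothelial UMIs. Droplets with fewer than 50 gene UMIs in the mixed library held it at 63.0 CPM (48.4 to 80.6).

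In the macrophage core list 1 of 19 tested genes passed (Aif1), beside the 2.94% of all genes. The genes of the rule, as a description, had log2 differences from -0.81 (Adgre1) to 0.81 (C1qb), and none of the 13 tested MHC class II genes passed, with H2-Ab1 at log2 -0.13 and Cd74 at -0.30. Of 17 perivascular genes 2 were lower, both seen on both sides, where 14 of the genes were, beside 1.03% of all such genes, and Pf4 (log2 -0.28), Lyve1 (-0.23) and F13a1 (-0.06) were among those that did not pass. The lower ones were Cd209f, at 377, 263 and 75.3 CPM with all 11 mixed UMIs in 1 cell (log2 -1.97, adjusted p = 0.00167), and Cd209d, at 794, 859 and 315 CPM (log2 -1.27, adjusted p = 0.0233; -1.07 and not called without the member with endothelial UMIs). Outside the lists their relatives Cd209b, at 178, 135 and 6.84 CPM (log2 -4.30), and Cd209e, at 44.5, 170 and 6.84 CPM (log2 -3.57; -3.38 and not called without that member), were at lower levels too, as genes that reached the filter in PLV alone. The Cd209 genes form a cluster of 394 kb on chromosome 8 (3743397 to 4137707), encode similar lectins and could share reads. These 4 genes were named because they were called lower, so mixed values below both PLV values add no support. In the mixed library Cd209f lay little above the 68.4 CPM of the filter. In PLV replicate 2, 19 of the 22 Cd209e UMIs of the C1q-zero cells lay in 1 cell.

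In the dendritic cell list 6 of 12 tested genes reached the filter on both sides, and 2 of them were lower and 0 higher in the mixed library, beside 1.03% and 1.96% of all such genes, with a median log2 difference of -0.43 beside 0.09. Naaa, encoding a lysosomal amidase, was at 589, 447 and 75.3 CPM (log2 -2.66, SE 0.46, adjusted p = 1.47e-06). Within the C1q-zero cells, 45 of 127 Naaa UMIs in PLV replicate 1 and 32 of 52 in PLV replicate 2 lay in 1 cell each. Irf8 was at 342, 333 and 68.4 CPM (log2 -2.17, adjusted p = 4.42e-04), and 62 of its 100 UMIs in PLV replicate 1 and 35 of 47 in PLV replicate 2 lay in the Xcr1 cells, which the mixed library lacked. In the mixed library Irf8 lay at the 68.4 CPM of the filter itself and Naaa little above it. Their count among genes seen on both sides therefore depends on that cutoff. Siglech and Ccl5 reached the filter in PLV alone. Siglech was at 171, 163 and 27.4 CPM (fitted log2 -2.46), and in PLV replicate 1 it had 39 of its 50 UMIs in the C1q-bearing cells with Lyve1. Ccl5 (log2 -4.39) rested on the 56 UMIs of 1 PLV replicate 2 cell, with 0 in PLV replicate 1, and its log2 difference was -5.60 without PLV replicate 1. Ccl24 (-1.98, and -1.29 without PLV replicate 1) and Cd36 (-1.73) were also lower. Pla2g2d, a secreted phospholipase gene (fitted log2 -4.04), Ski (-4.03), Hepacam2 (-3.65) and Eif2s3x (-3.69) reached the filter in PLV alone.

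Hspa1a, Hspa1b and Hsp90aa1, heat shock genes, were higher in the mixed library, of which DESeq2 called Hspa1b alone, while Hspa8 (log2 0.43), Hspe1 (1.07) and Dnajb1 (0.26) did not pass. Hspa1a was at 120, 35.5 and 807 CPM (log2 3.35, SE 0.36, adjusted p = 1.10e-17) and Hspa1b, its near-copy, at 92.4, 71.0 and 985 CPM (log2 3.68, SE 0.36, adjusted p = 5.92e-21). Hspa1a had log2 4.57 without PLV replicate 1 and 2.93 without PLV replicate 2. The other kept cells moved the same way, with Hspa1a at 117, 76.1 and 569 CPM and Hspa1b at 145, 113 and 539 CPM, and the test of a difference between members and other cells called neither gene. In the stress list 4 of 26 genes, all seen on both sides, were higher (Hspa1a, Hspa1b, Atf3 with log2 1.06 and Hsp90aa1 with 1.17) and 4 lower (Junb -1.06, Egr1 -1.05, Dusp1 -0.93 and Zfp36 -1.08), beside 1.96% and 1.03% of all such genes. The longer digestion came with the mixed library, and its part in these values was not tested. Ifitm3, an interferon-induced gene, was at 894, 653 and 1943 CPM (log2 1.45, adjusted p = 1.90e-05), and Aif1, at 164, 199 and 417 CPM (log2 1.35), and Lilrb4a, at 120, 56.8 and 267 CPM (log2 1.62; 2.31 without PLV replicate 1), were higher too. Il1b was at 223, 85.1 and 349 CPM (log2 1.21; 2.12 without PLV replicate 1 and 0.83 without PLV replicate 2). Cxcl2 (log2 0.93, and 0.40 without PLV replicate 1 or 1.73 without PLV replicate 2) and Ifi27l2a (1.30) were no longer called without the member with endothelial UMIs, at 0.66 and 0.63.

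**Figure D5:**
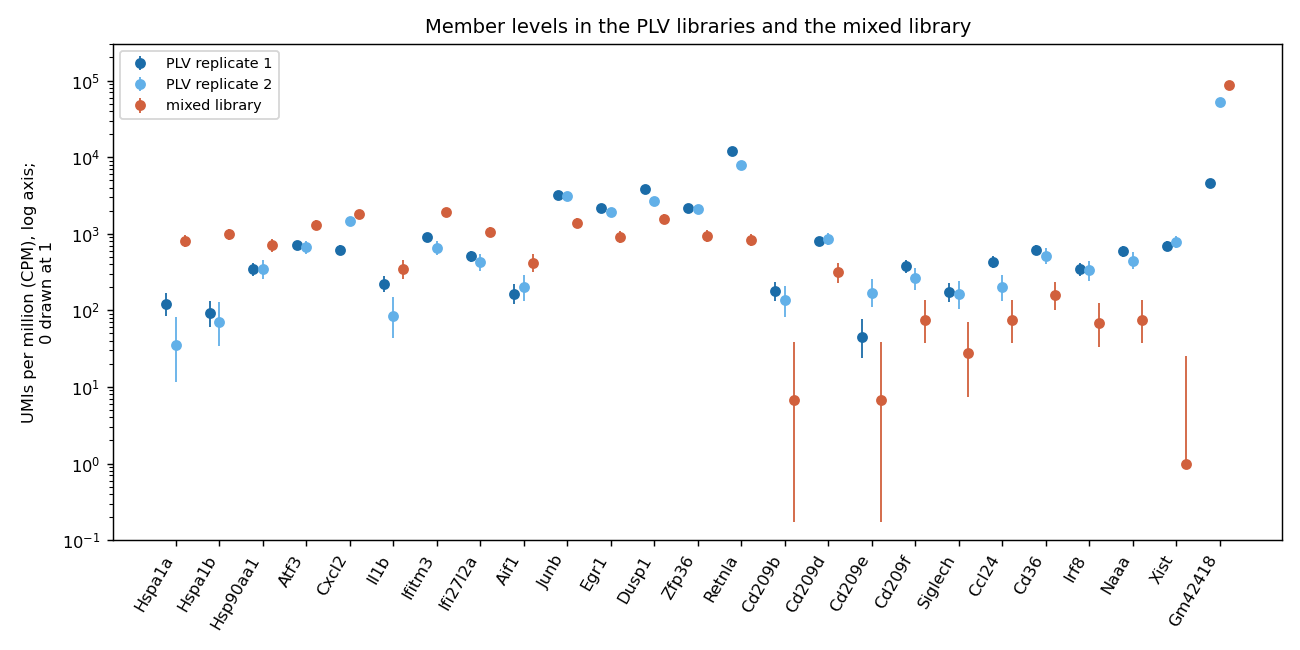
Levels in members of genes that differed with the library (horizontal axis), as CPM on a log axis with 0 drawn at 1, coloured by library, with exact 95% Poisson intervals. Retnla falls from 11894 and 7855 to 828, Hspa1a and Hspa1b lie higher in the mixed library, and Gm42418 differs between the PLV libraries as well.

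Several of the largest differences rested on single cells or on the pools, and in this paragraph Hbb-bs and Gm42418 alone reached the filter on both sides. Fabp4 was at 24.0, 28.4 and 1451 CPM (log2 5.92), with 211 of 212 mixed UMIs in the member with endothelial UMIs, and that member also held 50 of 50 UMIs of Cldn5 (log2 6.99), 33 of 35 of Igfbp7 (5.63), 29 of 29 of Ly6c1 (4.50), 38 of 38 of Clu (3.45), 29 of 29 of Ltbp4 (3.26), 20 of 21 of Ly6a (3.17) and 44 of 54 of Sparc (3.48). Without it, Sparc had log2 1.32 and was not called, and the other 7 genes fell under the filter on low counts. Without PLV replicate 1, the log2 difference was 8.67 for Cldn5, 7.89 for Ly6c1 and for Ltbp4, and 4.71 for Sparc. Hba-a1 (log2 -3.97), Hba-a2 (-3.52) and Hbb-bs (-3.04) were lower in the mixed library, and the sum of PLV replicate 1 held the 3 cells with haemoglobin. The values were 1133, 14.2 and 34.2 CPM for Hba-a1 and 1900, 42.6 and 109 CPM for Hbb-bs, whose log2 difference was 1.44 without PLV replicate 1. Without PLV replicate 2 the 3 genes had -4.85, -4.36 and -3.93. Xist was at 695, 788 and 0 CPM, where 0 allows up to 20.5 CPM. It was at least 35.3-fold lower in the mixed members than in the pooled PLV members. In the other cells of the mixed library Xist was lower too. Gm42418, a transcript that overlaps ribosomal RNA, was at 4650, 53125 and 87733 CPM in members and at 6428, 65936 and 68056 CPM in the other cells, so the PLV libraries differed in it as well.

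Whether a difference between the libraries was particular to the members was tested against the other kept cells of the same libraries, whose makeup also differs between libraries. The interaction was called for 53 of 12658 genes (0.419%). Retnla was lower in mixed members beyond the other cells (log2 -3.64, SE 0.56, adjusted p = 1.53e-07; -7.22 without PLV replicate 1 and -2.99 without PLV replicate 2), which held it at 10.9, 0.301 and 4.82 CPM. Cxcl2 was higher by log2 3.41 (SE 0.49, adjusted p = 9.23e-09), with 616, 1455 and 1800 CPM in members and 34.8, 58.9 and 7.04 CPM outside, so most of it lay in the other cells. Without the member with endothelial UMIs it was 3.11, and 140 and 73 of the 263 mixed Cxcl2 UMIs lay in 2 cells. Naaa (log2 -2.39) and the cathepsin gene Ctsh (-2.51) were lower beyond the other cells; Ctsh was at 428, 440 and 335 CPM in members and at 40.2, 29.5 and 135 CPM outside, so most of that difference lay in the other cells. Mpeg1, encoding the pore-forming perforin-2 of phagocytes, was at 640, 653 and 130 CPM in members against 3.43, 2.10 and 3.13 CPM outside (log2 -2.60, adjusted p = 0.0270). DESeq2 called 26 genes in this comparison, and the calls of 16 of the 31 genes named by the rule were lost, Retnla and Mpeg1 included.

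The reporter was lower in the members as a whole than in the other kept cells, though not in every arm. tdTomato, which marks cells with a history of Cre activity, had 1, 1 and 5 UMIs in members, that is 3.42 (0.0867 to 19.1), 7.10 (0.180 to 39.5) and 34.2 CPM (11.1 to 79.8), against 38.8, 71.0 and 105 CPM in the other kept cells. The interval in members lay below the level of the other cells in all 3 libraries. A UMI was found in 1 of 60, 1 of 15 and 4 of 21 members, and the 4 mixed cells were all C1q-zero. The member with endothelial UMIs, marked as a doublet, was 1 of these 4. In that arm 4 of 10 cells held it (40.0%) at 67.0 CPM (21.7 to 156), beside 36.8% and 105 CPM in the other kept cells of the mixed library. Droplets with fewer than 50 gene UMIs in the mixed library held it at 59.0 CPM (44.9 to 76.1), and the part of free RNA in the members' UMIs was not tested. Wt1 itself had 0 UMIs in the members and in all other kept cells of the 3 libraries.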

How the data were processed

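Single-cell RNA was measured in PLV replicate 1, PLV replicate 2 and a mixed library with a hashtag library. The deposited tables hold UMI counts per gene and barcode, made by the authors with Cell Ranger (6.1.2 for PLV and 4 for the mixed library, per the file headers); GRCm38, Cell Ranger and Seurat stand in the submitters' processing notes. The PLV tables held 2649 and 730 barcodes, and the mixed one, with its empty droplets, held 896360. Counts were filtered and the members picked by the rule given above, with Python 3.11.15, numpy 2.4.6, scipy 1.17.1, pandas 2.3.3 and scanpy 1.11.5. Scrublet marked 8, 3 and 3 kept barcodes as doublets, which were left in.

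Cells are not replicates, so UMIs were summed per library and arm and tested in R 4.3.3 with edgeR 4.0.16 (quasi-likelihood test, TMM, filterByExpr), with Benjamini-Hochberg adjustment over all genes tested and a threshold of 0.05; DESeq2 1.42.0 (with limma 3.58.1 as edgeR's base) was an alternative. The fits were also run on simulated data, whose outcome is not given here. Levels are UMIs per 1000000 of the summed cells (CPM), and differences are log2. With 1 pool of mice per library, p-values rest on the spread between library sums. In the comparisons of PLV with mixed cells that spread comes from the 2 PLV libraries alone. It covers neither the spread among mixed pools nor that among the cells of a sum. Named were the genes of the rule, the 20 with the highest lowest ratio over other cells, genes of the fixed lists that passed, the 10 largest called differences per side with at least 20 member UMIs, defining markers of other cell types, tdTomato, Wt1 and Xist; Retnla between the libraries, Gm42418, and the Lyve1 and C1q-zero subsets beyond these were chosen after their values were seen. The members and lists were chosen with earlier results of these data known. Some genes of the lists are not reported here. Gene positions come from GENCODE M21 on GRCm38 and promoters from RefSeq GRCm38.p6. Alternatives were 1000 UMIs, 10% mitochondrial UMIs, 2 or 4 identity genes, no exclusion genes, no filter on low counts, doublets left out, thinning to 1500 UMIs, no library block, 3 C1q UMIs for the split, each library left out and, added after seeing the data, leaving out 1 member with endothelial UMIs.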

Additional observations from a re-analysis of the deposited data

Results flagged for a closer look

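For 53 genes, members and the other kept cells differed in how the mixed library compared with PLV, by edgeR's test of the interaction with Benjamini-Hochberg adjustment. The named ones are given here by that log2 interaction, positive where members stood higher in the mixed library than the other cells' difference would give. DESeq2 did not call 16 of the 31 named genes, namely Lyz2, Mgl2, Il1b, Lilrb4a, Cdh5, Igfbp7, Pou2f2, Ltbp4, Egfl7, Stim1, Retnla, Tspan3, Gfra2, Tppp3, Ecm1 and Mpeg1, and gave Ifit2 no adjusted p.

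A positive value was found for these genes: Cxcl2 by 3.41, Il1b by 2.25, the leukocyte membrane gene Cd53 by 3.09, the inhibitory receptor gene Lilrb4a by 3.05, Maf by 1.83, the complement gene C3 by 3.21, the interferon-induced gene Ifit2 by 5.37, the transcription factor gene Pou2f2 by 3.89 and the myelin gene Mbp by 2.45. For Cd53 the members held 329, 206 and 239 CPM and the other cells 14.8, 15.3 and 1.30 CPM, so the difference lay in the other cells. The same was the case for Mbp, at 130, 92.2 and 103 CPM in members and 872, 569 and 106 CPM outside, and for Maf, at 856, 646 and 773 CPM in members and 292, 326 and 77.5 CPM outside. Ifit2 rested on 10 UMIs in 3 mixed members. Without PLV replicate 1 and without PLV replicate 2, Il1b was at 3.54 and 1.44, Lilrb4a at 4.34 and 2.20 and Ifit2 at 3.81 and 11.61.

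Endothelial genes stood higher as well: Fabp4 by 5.34, Cldn5 by 7.45, Cdh5 by 3.63, Ly6c1 by 4.33, Igfbp7 by 3.99, Ltbp4 by 3.75, Clu by 3.41, Crip2 by 3.24 and Egfl7 by 3.14. Nearly all of their mixed UMIs lay in the 1 member with endothelial UMIs, and without it 8 of these 9 genes had the opposite sign and Igfbp7 had 0.03. Without PLV replicate 1 the values were 13.13 for Cldn5, 11.67 for Ly6c1, 12.62 for Ltbp4 and 4.12 for Crip2, and Ltbp4 had 2.95 without PLV replicate 2.

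A negative value was found for Retnla (-3.64), Ctsh (-2.51), Naaa (-2.39), Mgl2 (-2.38), Lyz2 (-1.91), Wfdc17 (-2.40), Mpeg1 (-2.60), Cd302 (-2.84), Ecm1 (-2.68), Gfra2 (-3.27), Tppp3 (-3.13), Tspan3 (-3.48) and Stim1 (-11.19). For Lyz2 the members held 4865, 3349 and 5392 CPM and the other cells 23.1, 1.20 and 43.3 CPM, so the members were highest in the mixed library and the other cells were higher there too. For Mgl2 (1328, 1377 and 917 CPM in members, 2.15, 0 and 4.43 CPM outside) and Wfdc17 (1287, 1256 and 931 CPM, and 2.68, 1.80 and 7.95 CPM) the other cells were higher in the mixed library as well. Stim1, encoding a calcium sensor, had 58.2, 42.6 and 0 CPM in members and 86.0, 96.2 and 125 CPM outside, and a fitted value against a sum of 0 is no measure of size. The calls of Mgl2 (-2.26), Mbp (2.52), Stim1 (-11.19), Tspan3 (-3.32) and Gfra2 (-3.10) were lost without the member with endothelial UMIs. Without PLV replicate 1, Lyz2 had -4.61, Mgl2 -7.21 and Retnla -7.22 (-4.56 without the member with endothelial UMIs), and without PLV replicate 2, Lyz2 had -1.08 and Retnla -2.99.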

How the results depend on the processing

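The PLV share of members was 3.46% with at least 1000 UMIs and 3.24% with at least 2 identity genes, and moved by less than 1 SD under the other alternatives. Between the PLV and the mixed members, 6 genes were called with DESeq2, and 425 genes had an unadjusted p under 0.05 in edgeR. For the interaction, DESeq2 called 26 (8344 genes without an adjusted p). There 24 were called without marked doublets and 26 without the 1 member with endothelial UMIs. With at least 4 identity genes 42 were called, and 9 of the 31 named interaction calls were lost. With no filter on low counts 40 were called, and 7 of the 31 were lost. Between C1q-bearing and C1q-zero members, 546 genes were called with no filter on low counts, 211 with DESeq2, 62 of 211 tested after thinning to 1500 UMIs, and 211 to 403 with 1 library left out (211 without PLV replicate 1, 213 without PLV replicate 2 and 403 without the mixed library); 251 were called without the library block, 157 higher and 94 lower. Reversed were Hbb-bs between the libraries without PLV replicate 1 (1.44, and -3.93 without PLV replicate 2) and, in the interaction without marked doublets, Fabp4 (-2.21), Cdh5 (-7.26), Cldn5 (-5.77), Ly6c1 (-8.09), Ltbp4 (-8.68), Clu (-9.41), Crip2 (-0.83) and Egfl7 (-8.33); without the 1 member with endothelial UMIs the values were the same but for Ly6c1 (-8.10) and Egfl7 (-8.34). Without the library block, these calls between the C1q arms were lost: Cxcl2 (log2 2.89), Naaa (-1.27), Ccl9 (0.97), Fos (0.60), Dusp1 (1.04), Zfp36 (0.60) and Nr4a1 (-0.96). The cause of the other changes was not tested. No paired analysis was possible because replicate numbers are given for the PLV libraries alone, as far as PLV and mixed cells are compared; the C1q arms were compared within libraries. The member sums hold 15 to 60 cells, so genes with few UMIs had wide intervals, and without a PLV library the comparisons with the mixed library have no residual degrees of freedom and give values only.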

Other observations

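The member of the mixed library that held both C1q and genes of the C1q-zero side had 15 UMIs of C1qb, 7 of C1qc and 36 of Lyz2 beside 4 of Napsa, and it was not marked as a doublet. AY036118, a transcript that overlaps ribosomal RNA like Gm42418, was at 103, 383 and 1403 CPM in members and at 143, 597 and 1039 CPM in the other kept cells.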
